A study of Canis lupus familiaris with 8 samples.

Results

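Prostaglandin E2 is made from arachidonic acid in steps. Cyclooxygenases convert the released fatty acid to prostaglandin H2, and prostaglandin E synthases turn that into prostaglandin E2, which acts on cell-surface receptors. PTGS1 encodes the cyclooxygenase usually present at a steady level, PTGS2 the one induced by cytokines and growth factors, and PTGES the inducible microsomal synthase often made together with PTGS2. PTGER2 and PTGER4 encode the EP2 and EP4 receptors, which couple to the stimulatory G protein and raise cyclic AMP. The pathway is a known source of growth, vessel and immune signals in mammary tumours of dogs and women.

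These 5 genes were followed on 8 one-colour canine Agilent arrays. Every gene probe whose accession RefSeq assigns to PTGS1, PTGS2, PTGES, PTGER2 or PTGER4 was taken. The 5 genes are among 1458 that the array names this way. They had 7 of its 43603 gene probes, with 2 each for PTGS1 and PTGES and 1 for each of the others. Of these, 5 probes of 4 genes passed the filter on dim probes and were tested. The filter kept 26740 probes, those detected well above background on each of the 2 arrays of some group. Probes were taken by accession with no cut on a measured value, but the members were chosen with earlier results of these data known. No probe, transcript or protein sequence was at hand, so none is shown.

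CMT-Stylo is a canine mammary carcinoma cell line, and CMT-Star is its subline made resistant by months of rising doxorubicin, up to 100 nM. The 4 groups, each with 2 arrays, were Star CSC, Star parent, Stylo CSC and Stylo parent. CSC names cells sorted from a line by flow cytometry for CD44+ with CD24-/low and ALDH+ staining, and parent the unsorted line. All samples carry the label "non treated", all lines were grown in DMEM with serum, and no genetic change is named in either line. Star is 1 resistant subline, the sorting markers define the CSC groups, and nothing in the labels says that replicates came from separate cultures. The p-values therefore measure only the spread between these samples, which may be technical.

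The 4 Stylo arrays lay on 1 slide and the 4 Star arrays on the other, so line and slide cannot be told apart. Each CSC to parent comparison was made within 1 slide. The 75th percentile of the processed signal was 88.8 and 69.5 on the Stylo parent arrays, against 297 to 540 on the others. Between 46.7% and 47.4% of spots were well above background on the Stylo parent arrays, against 55.5% to 60.7% elsewhere, and no spot was saturated. CD44 was well above background on all 8 arrays. Its log2 fold change was 0.99 ± 0.14 (SE) in Stylo CSC against Stylo parent and -0.89 ± 0.14 in Star CSC against Star parent. CD24 had no named probe, and the ALDH1A1 probe was well above background on both Star CSC arrays and on no array of Star parent, Stylo CSC or Stylo parent. Of 11 epithelial markers 4 had a named probe (CDH1, KRT14, KRT19 and CLDN3). Between 3 and 4 of these were well above background on the Star CSC arrays, 3 on the Star parent and Stylo CSC arrays and 2 on the Stylo parent arrays.

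A level here is log2 of the processed signal less the array's 75th percentile. Differences were tested with limma over all 8 arrays, with Benjamini-Hochberg adjustment over all tested probes. A gene was called when its adjusted p was under 0.05 and its change at least 2-fold. The question in each comparison was whether resistance, or the sort, went with a different expression of the gene. In these bulk samples, fewer cells of a type and less RNA per cell cannot be told apart.

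**Figure D1:**
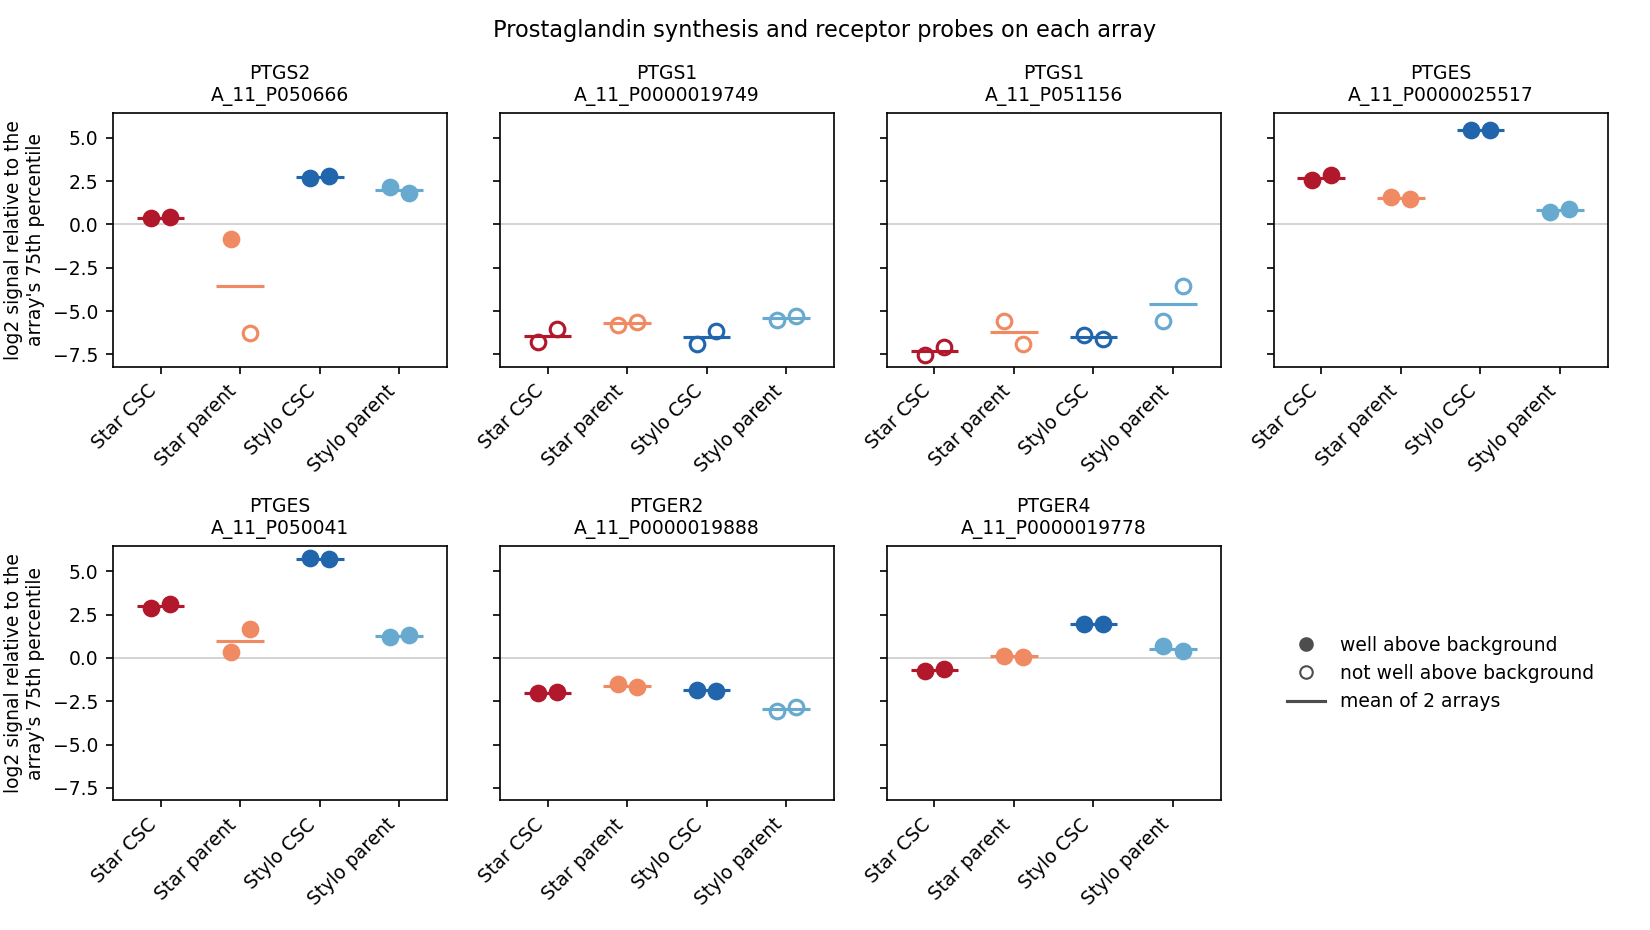
Level of each of the 7 probes on each array, as log2 signal relative to the array's 75th percentile, by group; circles are single arrays, open where not well above background, and lines are means of 2 arrays. PTGES and PTGER4 are highest in Stylo CSC, PTGS1 is never above background, and one PTGS2 array (Star parent replicate 2) lies far below its partner.

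Star parent cells had less PTGS2 signal than Stylo parent cells, and PTGER2 was above background only in the resistant line of the pair. PTGES and PTGER4 did not reach a 2-fold change between the parents. Of the 4 measured genes, 1 was called higher, against 24.6% of all tested probes, and 1 lower, against 32.0%. With 56.6% of all probes called in either direction, 2 of 4 is near the background.

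Stylo CSC cells had more PTGES, PTGER4 and PTGER2 signal than the Stylo parent line. These were 3 of the 4 measured genes, against 21.9% of all tested probes called higher, and none was called lower, against 32.1%, with 54.0% of probes called in either direction. In the resistant line PTGES rose in the sorted cells, 1 of the 4 genes, against 3.19% of all tested probes called higher in Star CSC. None fell past the threshold, against 6.53% of probes called lower and 9.72% called in either direction. Between the sorted populations, PTGES and PTGER4 were lower in Star CSC than in Stylo CSC. This was 2 of 4 genes, against 17.0% of probes called lower, and none was called higher, against 12.5%, with 29.5% called in either direction. Star parent replicate 2 read very low for PTGS2. A fit without that array leaves 1 Star parent array, so no count of genes called from it is set against these shares.

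**Figure D2:**
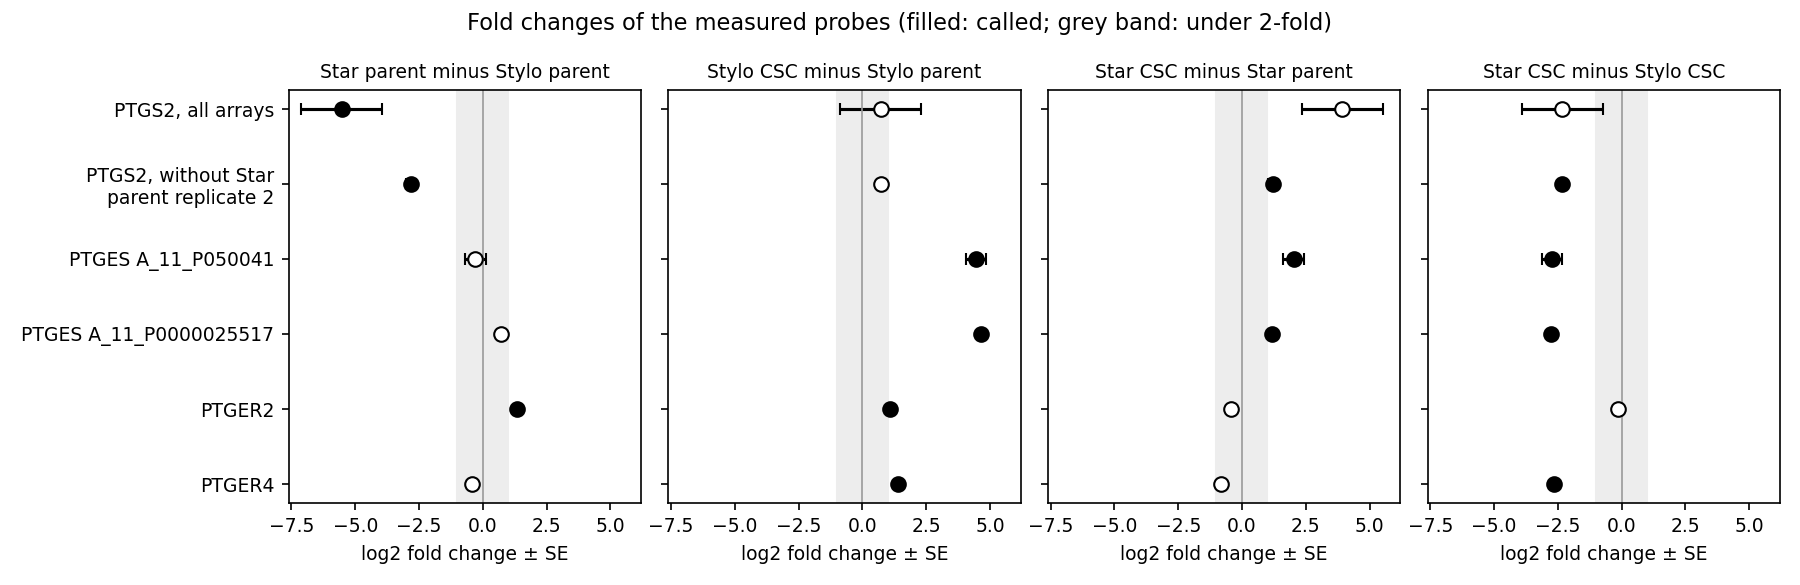
Log2 fold change with its SE for each tested probe in the 4 comparisons, with PTGS2 shown from all 8 arrays and from 7; filled circles were called and the grey band marks changes under 2-fold. Both PTGES probes were called higher in each sorted population and lower in Star CSC than in Stylo CSC.

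PTGS1 was not detected in any group. Its 2 probes, A_11_P0000019749 and A_11_P051156, gave processed signals between 1.79 and 7.98, and the scanner software called neither well above background on a single array. No fold is given for it, and an expression below this array's detection limit remains possible.

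PTGS2 was measured by 1 probe, A_11_P050666, and its results depend on 1 array. Its processed signal was 211 and 4.39 in Star parent cells, against 400 and 244 in Stylo parent cells. It was 700 and 624 in Star CSC and 1954 and 2047 in Stylo CSC. As levels, these were -0.82 and -6.24 in Star parent and 2.17 and 1.81 in Stylo parent, then 0.37 and 0.41 in Star CSC and 2.65 and 2.78 in Stylo CSC. The order was Stylo CSC, Stylo parent, Star CSC and Star parent, and no pair of these groups overlapped. With 2 arrays a group this only describes the values, and the share of all probes that separate so was not counted. The other groups' replicates lay within 0.36 of each other, whereas the Star parent pair differed by 5.42.

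The low reading, on Star parent replicate 2, was the only PTGS2 value not well above background. The spot carried no outlier flag, with a median signal of 58 over a local background of 33. Its neighbours on the slide were also low on that array. Among 9 measured spots within 2 rows and columns, replicate 2 minus replicate 1 had a median of -2.54 (range -4.99 to 0.10), and 6 of the 9 were below -1. Across the array, 381 of 26735 spots, 1.43%, were below -1. On the Star CSC arrays 4 of 9 neighbours were below -1 while PTGS2 itself differed by 0.04, and on the Stylo arrays none was. Of 25360 tested probes above background on Star parent replicate 1, 22, a count that includes PTGS2 itself, fell at least as far as PTGS2 on replicate 2. PTGS2 results are therefore given with and without that array, a choice made after its value was seen.

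**Figure D3:**
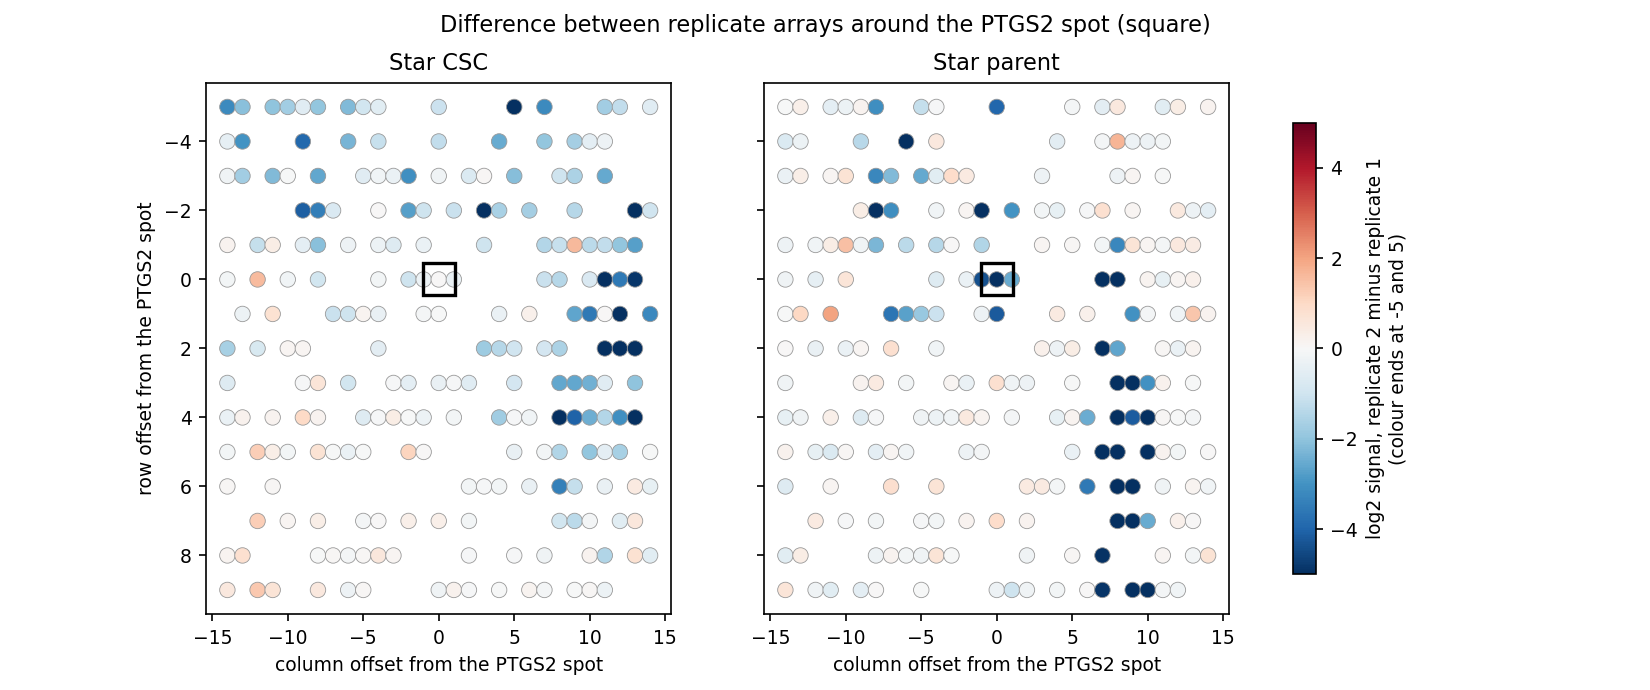
Difference in log2 level between replicate 2 and replicate 1 for every measured spot around the PTGS2 spot (square), by row and column offset, for Star CSC and Star parent. On the Star parent arrays the PTGS2 spot and 6 of its 9 nearest neighbours are more than 1 log2 unit lower on replicate 2, and a longer run of dim spots lies to its right on both panels.

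Over all 8 arrays PTGS2 was lower in Star parent than in Stylo parent, with a log2 fold change of -5.53 ± 1.58 (SE; limma, adjusted p = 0.0193). Without Star parent replicate 2 it was -2.81 ± 0.18 (limma, adjusted p = 0.000219), so the call held and the fitted difference was smaller. When the fit used the 4 parent arrays alone, the adjusted p from limma was 0.0508. It was 0.0763 without Stylo parent replicate 1 and 0.0647 without Stylo parent replicate 2, so the call ended in these fits that kept the low array.

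For PTGS2, Star CSC against Star parent gave 3.93 ± 1.58 over all arrays (limma, adjusted p = 0.113), which was not called. Without the low array the same comparison gave 1.22 ± 0.18 (limma, adjusted p = 0.0170), which was called. The remaining Star parent array is then assumed to vary like the other groups. Star CSC against Stylo CSC, which does not use the low array's value, gave a log2 fold change of -2.32. Its error does use that value through the shared spread. It was 1.58 with all arrays (limma, adjusted p = 0.252) and 0.15 without the low one (limma, adjusted p = 0.000561). Stylo CSC against Stylo parent was 0.72, with a limma adjusted p of 0.696 over all arrays and 0.00878 without the low array, and stayed under 2-fold either way.

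PTGES had the largest called change of the 4 genes in Stylo CSC against Stylo parent. In Star CSC against Star parent PTGS2 had the larger estimate over all arrays, 3.93 against 2.02 and 1.19, but only PTGES was called. Its brighter probe, A_11_P050041, gave 4048 and 3993 in Star CSC and 464 and 1038 in Star parent. It gave 16878 and 15278 in Stylo CSC and 209 and 172 in Stylo parent. The other probe, A_11_P0000025517, gave 3223 and 3334 in Star CSC and 1113 and 910 in Star parent. It gave 13745 and 12960 in Stylo CSC and 145 and 130 in Stylo parent. On both probes every sorted array was above every parent array of its own line, and every Stylo CSC array was above every Star CSC array. Here too the share of all probes that separate so was not counted.

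In Stylo CSC, PTGES was 21.9-fold higher than in Stylo parent by the brighter probe (log2 fold change 4.45 ± 0.40, limma adjusted p = 0.000141). The other probe gave 25.1-fold (4.65 ± 0.13, limma adjusted p = 1.2e-05). In Star CSC it was 4.06-fold higher than in Star parent by the brighter probe (2.02 ± 0.40, limma adjusted p = 0.0159). The other probe gave 2.28-fold (1.19 ± 0.13, limma adjusted p = 0.00291). The brighter probe's call ended in a fit of the 4 Star arrays alone (limma, adjusted p = 0.0626) and without Star CSC replicate 2 (limma, adjusted p = 0.0709). Its Star parent arrays differed by 1.33 in log2 level, against 0.12 for the other probe. Leaving out Star parent replicate 1 gave a log2 change of 1.36, and leaving out replicate 2 gave 2.68.

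Between sorted populations PTGES was 6.61-fold lower in Star CSC than in Stylo CSC by the brighter probe (-2.72 ± 0.40, limma adjusted p = 0.00223). It was 6.74-fold lower by the other (-2.75 ± 0.13, limma adjusted p = 5.27e-05). The parents gave no common direction. The brighter probe gave -0.29 ± 0.40 in Star parent against Stylo parent (limma, adjusted p = 0.528) and the other 0.71 ± 0.13 (limma, adjusted p = 0.00314), under 2-fold. The brighter probe's own sign turned in 5 alternative scalings or corrections and without Star parent replicate 1.

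PTGER4, the EP4 receptor, was called higher with sorting in Stylo cells and was not called in Star cells. Its probe, A_11_P0000019778, gave 318 and 297 in Star CSC and 411 and 351 in Star parent. It gave 1205 and 1143 in Stylo CSC and 140 and 92.6 in Stylo parent. As levels the order was Stylo CSC (1.95 ± 0.01, SD, n = 2), Stylo parent (0.54 ± 0.17), Star parent (0.11 ± 0.04) and Star CSC (-0.71 ± 0.07). No arrays of these groups overlapped, again without a count of how many of all probes separate so.

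PTGER4 was 2.66-fold higher in Stylo CSC than in Stylo parent (log2 fold change 1.41 ± 0.12, limma adjusted p = 9.5e-05). It was 6.31-fold lower in Star CSC than in Stylo CSC (-2.66 ± 0.12, limma adjusted p = 3.96e-05). Star CSC against Star parent gave -0.82 ± 0.12 (limma, adjusted p = 0.00574), under 2-fold and so not called. Star parent against Stylo parent gave -0.43 ± 0.12 (limma, adjusted p = 0.0149), also under 2-fold. Both of these small differences turned positive under scaling to the spike-in controls.

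PTGER2, the EP2 receptor, was dim. Its probe, A_11_P0000019888, gave 131 and 120 in Star CSC and 130 and 104 in Star parent. It gave 85.5 and 80.0 in Stylo CSC, while 10.7 and 9.70 in Stylo parent were not well above background. As levels, Star parent (-1.60 ± 0.11, SD, n = 2), Stylo CSC (-1.88 ± 0.02) and Star CSC (-2.01 ± 0.05) differed by at most 0.41, and Stylo parent was not detected.

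A group with no array above background was set, on each array, to the higher of its own value and the lowest level well above background. Folds given as a bound or as "at least" rest on that floor. It is not a detection limit, and they hold only for the main scaling and background correction. For PTGER2 the Stylo parent levels, -3.06 and -2.84, lay above their floors, -3.39 and -3.16, so only fitted values are given. PTGER2 was 2.56-fold higher in Star parent than in Stylo parent (fitted log2 1.36 ± 0.12, limma adjusted p = 9.89e-05). It was 2.10-fold higher in Stylo CSC than in Stylo parent (fitted 1.07 ± 0.12, limma adjusted p = 0.000315). The second call ended without Stylo parent replicate 1, where the fitted value was 0.96. Both changed sign with normexp background correction, to -0.98 and -1.05. The dimmer Stylo parent arrays move with both results, and their part in them was not tested. Star CSC against Star parent gave -0.41 ± 0.12 (limma, adjusted p = 0.0446), under 2-fold, and Star CSC against Stylo CSC gave -0.13 ± 0.12 (limma, adjusted p = 0.377).

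The change with sorting differed between the lines for 3 of the 4 measured genes. The test was the CSC minus parent difference in Star less that in Stylo, and 24.0% of all tested probes were called lower in it, 28.0% higher and 52.1% in either direction. For PTGES it was -2.43 ± 0.57 by the brighter probe (limma, adjusted p = 0.0106) and -3.46 ± 0.19 by the other (limma, adjusted p = 5.72e-05). For PTGER4 it was -2.23 ± 0.16 (limma, adjusted p = 0.000116). For PTGER2 it was -1.48 ± 0.16 (limma, adjusted p = 0.000519), a value that uses Stylo parent readings below background and turned to 0.68 with normexp. PTGS2 gave 3.20 ± 2.24 (limma, adjusted p = 0.252) with all arrays and 0.49 ± 0.23 (limma, adjusted p = 0.129) without Star parent replicate 2. In these interactions too, the line cannot be separated from its slide.

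**Figure D4:**
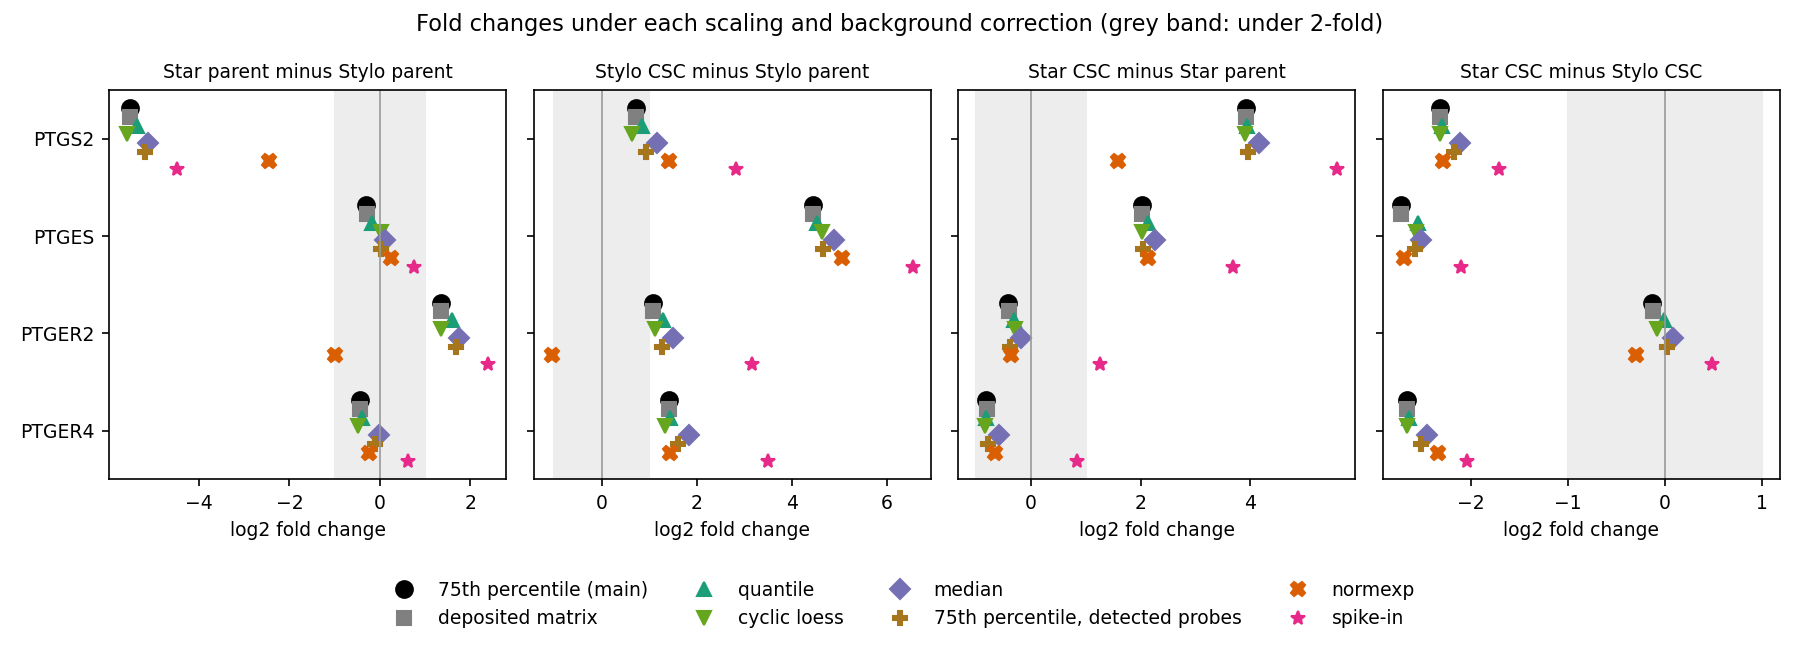
Log2 fold change of PTGS2, PTGES (brighter probe), PTGER2 and PTGER4 in the 4 comparisons under 8 ways of scaling or background correction, all from 8 arrays. PTGES in Stylo CSC stays between 4.45 and 6.54 in each of those shown, while PTGER2 against Stylo parent lies on the other side of 0 with normexp.

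The remaining genes of the pathway were taken from a list of 88 symbols, of which 34 had a named probe and 24 were tested. In Star parent against Stylo parent, 4 of the 24 were called higher and 7 lower, where 201 of all 977 tested named genes were higher and 383 lower. The list's median log2 fold change there was -0.54, against -0.48 over the named genes and -0.20 over all tested probes. Stylo CSC against Stylo parent had 8 of the list higher and 8 lower, where 189 of the named genes were higher and 371 lower, with medians of 0.14 for the list, -0.59 for the named genes and -0.27 for all probes. In Star CSC against Star parent the list had 3 higher and 4 lower, where 54 of the named genes were higher and 72 lower, with medians of -0.44, -0.10 and -0.11. In Star CSC against Stylo CSC it had 3 higher and 9 lower, where 152 of the named genes were higher and 220 lower, with medians of -0.63, -0.20 and -0.11. Several calls turned in sign under another scaling or with normexp. These were 3 of 11, 9 of 16, 5 of 7 and 1 of 12 in the same order of comparisons. The calls against Stylo parent include HPGD in Stylo CSC and IL10 in Star parent, where both groups were below background, so no fold is given for them.

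Among the other synthases, PTGDS makes prostaglandin D2 from the same precursor as PTGES. It gave 1900 and 1629 in Star CSC, 310 and 356 in Star parent and 75.4 and 78.6 in Stylo CSC, and was below background in Stylo parent. It was higher in Star CSC than in Star parent (log2 fold change 1.89 ± 0.15, limma adjusted p = 0.00115) and than in Stylo CSC (3.79 ± 0.15, limma adjusted p = 2.93e-05). Star parent exceeded Stylo parent at least 9.11-fold, a call that ended with normexp (log2 0.46). PTGDS was thus brightest in the sorted Star cells, where PTGES was below its Stylo CSC level. PTGES2, a second prostaglandin E synthase, was called by its brighter probe in 1 of the 4 comparisons, Stylo CSC against Stylo parent. The value there was 1.45 ± 0.13 (limma, adjusted p = 0.000158) and turned to -0.54 with normexp. Its other probe was called higher there (2.01 ± 0.29, limma adjusted p = 0.00103) and in Star parent against Stylo parent (1.06 ± 0.29, limma adjusted p = 0.0155). That probe was above background on 1 of 2 Stylo parent arrays. HPGDS and AKR1C3, further synthases, stayed at background throughout.

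Among genes that remove or carry prostaglandins, SLCO2A1 encodes the uptake transporter. It was lower in Star parent than in Stylo parent (-4.06 ± 0.35, limma adjusted p = 9.84e-05), with 1 of 2 Star parent arrays above background. It was at least 13.3-fold lower in Star CSC than in Stylo CSC. ABCC4, an exporter of prostaglandins and other anions, was lower in Star CSC than in Stylo CSC (-1.91 ± 0.23, limma adjusted p = 0.00108) and than in Star parent (-1.31 ± 0.23, limma adjusted p = 0.0110). The second of these turned to 0.35 with spike-in scaling. HPGD, which inactivates prostaglandin E2, was above background in Star CSC only, at least 1.83-fold above Stylo CSC by a fit that turned to -0.22 with normexp.

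**Figure D5:**
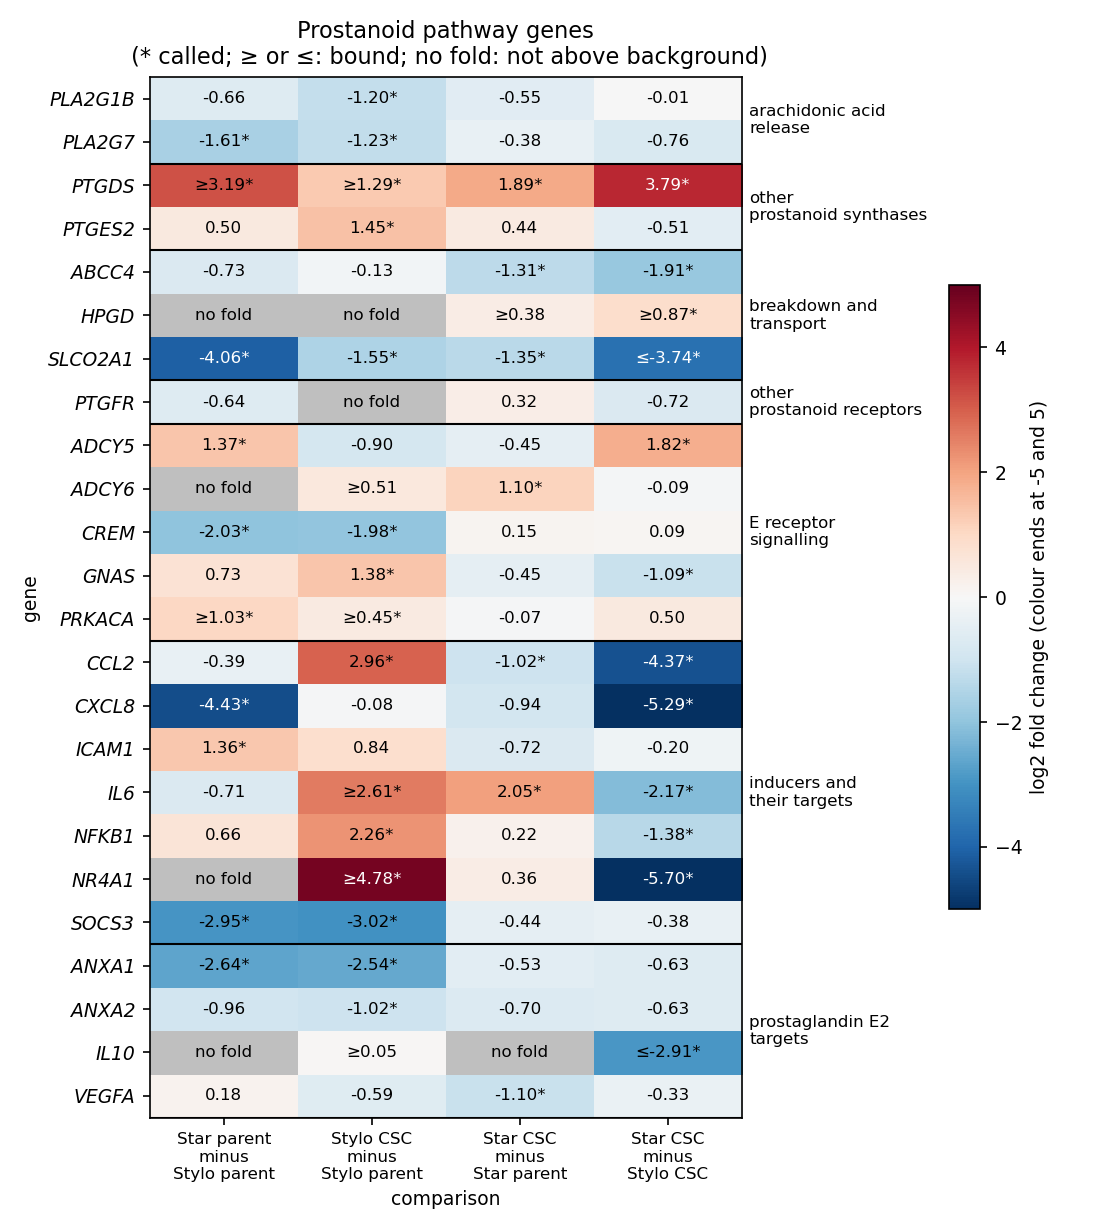
Log2 fold changes of the 24 tested pathway genes, grouped by role, in the 4 comparisons; an asterisk marks a call, ≥ and ≤ a bound against a group below background, and grey cells have no fold. CCL2, IL6, NFKB1 and NR4A1 are called higher in Stylo CSC than in Stylo parent and lower in Star CSC than in Stylo CSC.

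Downstream of the receptors, GNAS encodes the stimulatory G protein subunit that EP2 and EP4 use. It was higher in Stylo CSC than in Stylo parent (1.38 ± 0.10, limma adjusted p = 6.79e-05), and its 5 tested probes were all called higher there, by 1.38 to 2.21. In Star parent against Stylo parent the probe with the highest level gave 0.73 ± 0.10, under 2-fold. The other GNAS probes gave 1.71 to 2.87 there and were all called higher. In Star CSC against Stylo CSC the probe with the highest level gave -1.09 ± 0.10 (limma, adjusted p = 0.000441), but the other probes gave -0.65 to 0.74 and none of them was called. That call also ended with quantile normalization (-0.52) and with 5 other scalings or corrections, so the probes give no common direction. CREM, a nuclear factor that responds to cyclic AMP, was lower in Star parent (-2.03 ± 0.14, limma adjusted p = 4.29e-05) and in Stylo CSC (-1.98 ± 0.14, limma adjusted p = 6e-05) than in Stylo parent. With spike-in scaling both calls ended, at -0.99 in Star parent and 0.12 in Stylo CSC.

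At the ends of the pathway, PLA2G7, which hydrolyses platelet-activating factor, was lower in Stylo CSC than in Stylo parent (-1.23 ± 0.10, limma adjusted p = 8.29e-05), which became 0.86 with spike-in scaling and 0.22 with normexp. PTGFR, the receptor of prostaglandin F2 alpha, was called in no comparison. Of 4 tested targets of prostaglandin E2, none was called higher in the 4 comparisons. ANXA1, an anti-inflammatory phospholipid-binding protein, was lower in Stylo CSC than in Stylo parent (-2.54 ± 0.09, limma adjusted p = 1.2e-05), a call that ended with quantile normalization (-0.90), spike-in scaling (-0.45) and normexp (-0.98). VEGFA, a growth factor for blood vessels, was lower in Star CSC than in Star parent (-1.10 ± 0.21, limma adjusted p = 0.0149), and its value became 0.57 with spike-in scaling.

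The list of inducers and their targets held 7 tested genes, and Stylo CSC against Stylo parent had 4 of them called higher and 1 lower. The gene called lower was SOCS3 (-3.02 ± 0.26, limma adjusted p = 0.00012), a call that did not hold in all scalings. CXCL8 was called by none of its 4 tested probes in that comparison. In Star CSC against Stylo CSC, 5 of the 7 were called lower and none higher. All tested probes had 21.9% called higher and 32.1% lower in the first of these comparisons, and 17.0% lower and 12.5% higher in the second. CCL2, a monocyte chemokine, gave 2604 and 2461 in Star CSC, 3598 and 3619 in Star parent, 31483 and 31817 in Stylo CSC and 1222 and 904 in Stylo parent. The chemokine rose in Stylo CSC (2.96 ± 0.11, limma adjusted p = 1.2e-05) and was lower in Star CSC than in Stylo CSC (-4.37 ± 0.11, limma adjusted p = 1.04e-05). IL6, an inflammatory cytokine, was at least 6.09-fold higher in Stylo CSC than in Stylo parent, with a fitted log2 value of 3.51 that became -0.03 with normexp. In Star CSC against Star parent IL6 was also called higher (2.05 ± 0.23, limma adjusted p = 0.00288), with 1 of 2 Star parent arrays above background. CCL2 was called lower there (-1.02 ± 0.11, limma adjusted p = 0.00268), with a sign that turned under another scaling or correction. NFKB1, a subunit of the transcription factor that drives many of these genes, gave 2.26 ± 0.11 (limma, adjusted p = 1.62e-05) in Stylo CSC against Stylo parent by its brighter probe. Its other probe gave 0.93 (limma, adjusted p = 0.0148), under 2-fold. NR4A1, an immediate early nuclear receptor, was at least 27.5-fold higher there. The classical inducers of PTGS2 with a probe, IL1A, IL1B and TNF, stayed at background on all 8 arrays.

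Most fibroblast markers moved with PTGES and PTGER4 in the Stylo line, but not with PTGES in the Star line. Of 5 named markers, Stylo CSC against Stylo parent had 4 called higher, against 21.9% of all tested probes, and 1 lower, against 32.1%. In Star CSC against Stylo CSC 4 were called lower, against 17.0%, and none higher, against 12.5%. None of the 5, each by its probe with the highest level, was called in Star CSC against Star parent, where PTGES was called higher. Their summed level, in units of the array's 75th percentile, was 113 to 124 in Star CSC, 125 to 197 in Star parent, 605 to 647 in Stylo CSC and 77.2 to 83.9 in Stylo parent. COL1A2 alone made up 86.9% to 97.3% of that sum. Its probes A_11_P147268 (-1.13 ± 0.18, limma adjusted p = 0.0087) and A_11_P145878 (-1.35 ± 0.20, limma adjusted p = 0.00677) were called lower in Star CSC against Star parent. The remaining COL1A2 probes were not called there. The THY1 probes opposed each other in Stylo CSC against Stylo parent, at 2.73 and -2.24. All 5 fibroblast markers were above background on every array, and their part in the results was not tested. The 4 epithelial markers had 1 called higher and 2 lower in Stylo CSC against Stylo parent. They had 1 higher and 3 lower in Star CSC against Stylo CSC, and 1 higher and none lower in Star CSC against Star parent. The 7 named leukocyte markers summed to 1.05 to 1.11 in Star CSC, 0.153 to 0.193 in Star parent, 0.102 to 0.128 in Stylo CSC and 0.347 to 0.356 in Stylo parent. Of these 7, 3 to 4 were above background on the Star CSC arrays, 2 on the Star parent arrays and 0 to 1 on the Stylo arrays. The Stylo sums therefore rest in part or wholly on undetected readings. CD86 made up 93.2% to 93.7% of the sum in Star CSC. CD4, MS4A1 and FCER1G among them were below background on all arrays. Star CSC against Star parent had 2 of 3 tested leukocyte markers called higher and none lower, against 3.19% and 6.53% of all tested probes. The part of these markers in the PTGES result was not tested. Of 2 tested endothelial markers 1 was called lower in Stylo CSC against Stylo parent and none in Star CSC against Star parent. Of 2 tested platelet markers 1 was called lower in Star CSC against Star parent and none in Stylo CSC against Stylo parent.

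The named genes whose levels ran most like each member were found by Pearson correlation over the 8 arrays, among 477 or 478 genes with a range of at least 2 log2 units. The 8 points share 4 groups, so these are descriptions. PTGES ran most like CA9 (r = 0.991), IL6 (r = 0.980) and SLC29A1 (r = 0.959). PTGER4 ran most like CCL2 (r = 0.984) and F2RL1 (r = 0.982). PTGER2 ran most like CYB5R3 (r = 0.991), IGF2R (r = 0.988) and NCSTN (r = 0.986). In Stylo parent both PTGER2 and IL6 were not well above background, nor was IL6 on Star parent replicate 1. Their correlations therefore rest partly on undetected readings. For PTGS2 the closest was SLC11A1, at 0.829 over 8 arrays and 0.984 over the 7 without Star parent replicate 2.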

How the data were processed

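RNA of 8 samples was hybridised to one-colour canine Agilent arrays. Per the file headers and the submitters' processing notes, the authors' scanner files from Feature Extraction 11.5.1.1 give each spot a background-corrected processed intensity with detection flags. The deposited matrix holds log2 values. Against the scanner files its columns differ from log2 of the processed signal less the 75th percentile, taken relative to Stylo CSC replicate 1, by a constant per array, so its scale is log2 and its probes are centred. Its column medians ran from -0.27 to 1.01. The direction is that of signal. The genome build of the array design differs from the RefSeq table's, so no coordinates are given.

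Groups and replicate numbers came from sample titles. Control spots and outlier-flagged spots were left out. Probes were named through RefSeq accessions, which named 2353 of 43603 probes (5.40%), 1458 symbols. With 2 arrays a group, precision is limited by their number and by signal over background. All 4 group means were fitted with limma 3.58.1 in R 4.3.3, and the fit was tested on simulated data. A gene with several tested probes is represented by the one with the highest mean level. The text names every member, called genes of a prostanoid pathway list by role, and for each member up to 3 genes most like it, of which 1 is not reported here. Marker lists of other cell types were counted by call. Members and lists were chosen with earlier results of these data known. Replicate numbers were checked for pairing by the correlation of deviations from the group means, which lay between -0.07 and 0.07 for pairs of groups, so they share only a number. Replicate arrays correlated at 0.982 to 0.996. Alternatives changed scaling, background correction, filters, thresholds, probe choice and the arrays included.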

Additional observations from a re-analysis of the deposited data

Results flagged for a closer look

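The change with sorting differed between the lines by a test of the difference itself for 3 of the 4 measured genes, where 52.1% of all tested probes were called. The CSC minus parent difference in Star less that in Stylo was -2.43 for PTGES by probe A_11_P050041, -3.46 for PTGES by probe A_11_P0000025517, -2.23 for PTGER4 and -1.48 for PTGER2. The PTGER2 value uses Stylo parent readings below background and changed sign with normexp. Both line-specific differences behind each value were positive for PTGES, and for PTGER4 the Star difference was negative and the Stylo one positive. No group had enough arrays to look for single samples that stand apart.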

How the results depend on the processing

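Each result was recomputed under other scalings, normexp, filters, thresholds and subsets of arrays. Calls for PTGES and PTGER4 in Stylo CSC against Stylo parent and in Star CSC against Stylo CSC held their direction and call in all of them. Signs turned as follows. PTGES in Star parent against Stylo parent gave 0.029 with the percentile of detected probes, 0.039 with cyclic loess, 0.21 for the mean of its probes, 0.11 with the median, 0.24 with normexp, 0.71 by its other probe, 0.75 with spike-in scaling and 0.37 without Star parent replicate 1. With 1 array left out it ran from -0.96 to 0.37. PTGER2 gave 1.25 (Star CSC against Star parent) and 0.49 (against Stylo CSC) with spike-in scaling. Against Stylo CSC it was 0.018 with the percentile of detected probes and 0.080 with the median. With normexp it gave -0.98 in Star parent and -1.05 in Stylo CSC against Stylo parent, and 0.68 in the interaction. PTGER4 gave 0.85 in Star CSC against Star parent and 0.62 in Star parent against Stylo parent with spike-in scaling. The cause was not tested. Members called in Star CSC against Star parent, 1, became 0 at an adjusted p under 0.01 or from the compared arrays alone, 2 with normexp and 3 with no fold minimum or spike-in scaling. In Star parent against Stylo parent, 2 became 1 at that p, with normexp or from the compared arrays alone, and 0 when only probes above background on all arrays were kept, which leaves out PTGS2 and PTGER2. Leaving out 1 array at a time gave 0 to 2, 1 to 2, 2 to 3 (Stylo CSC against Stylo parent), 2 to 3 (Star CSC against Stylo CSC) and 3 to 4 (interaction). Pathway genes called in Star CSC against Star parent, 7, became 3 at that p, 4 with the median, 13 with no fold minimum, 2 with normexp, 3 with the all-array filter and 17 with spike-in scaling, and 3 to 6 with 1 array left out. With the all-array filter 12 became 5 (Star CSC against Stylo CSC), 11 became 6 (Star parent against Stylo parent) and 16 became 10 (Stylo CSC against Stylo parent). In the parents 11 became 20 with no fold minimum and 19 with normexp. Over all probes, the 2600 calls in Star CSC against Star parent became 1727 at that p, 7920 with no fold minimum, 1142 with normexp, 1342 with the all-array filter and 21708 with spike-in scaling. Star CSC against Stylo CSC gave 7885, against 15262 with no fold minimum, 4013 with normexp and 4574 with the all-array filter. With no filter, 15126 became 26689 in the parents, 14441 became 28579 in Stylo CSC and 13923 became 21872 in the interaction, which was 8223 with spike-in scaling. Spike-in scaling moved the median change of all tested probes to between -0.29 and 1.82, and normexp to between -0.83 and 0.64. The share of calls that were higher was 43.5% in Star parent against Stylo parent, and 55.2% with quantile, 57.0% with median, 54.4% with detected-probe percentile, 76.4% with spike-in scaling and 25.0% with normexp. In Stylo CSC against Stylo parent it was 40.6%, and 53.9%, 57.3%, 51.8% (cyclic loess), 98.4% and 25.6% in quantile, median, loess, spike-in and normexp. In Star CSC against Star parent it was 32.8%, and 46.4%, 58.9%, 47.6% and 99.2% in quantile, median, loess and spike-in. In Star CSC against Stylo CSC it was 42.3%, and 56.3% with the median and 76.4% with spike-in scaling. In the interaction it was 53.9%, and 33.3% with spike-in scaling and 70.1% with normexp. With the replicate number as a block the members called were 2, 3, 1, 2 and 3, as in the unblocked fit, though the numbers do not pair the samples. A random slide block was not run, since each group lay on 1 slide.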
